A study of Caenorhabditis elegans with 8 samples.

Results

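The genes described here are 64 Caenorhabditis elegans genes that carry only a sequence name and whose transcripts were highest in young adults among the 3 stages of glp-1 nematodes that were measured. A sequence name gives the clone on which the genome project found the gene and a running number, so that it states a position and no function. The members were chosen by their values: a gene was kept if its lowest young adult value exceeded its highest value in embryos and in aging adults by at least 1 on the log2 scale, that is 2-fold, after quantile normalization of all 8 arrays with a floor at an intensity of 50. The rule took 64 of 6720 unnamed genes (0.952%) among 17118 genes measured. The same rule took 131 of 10398 named genes (1.26%) and 1.14% of all genes. With aging adults as the peak, the mirrored rule took 56 of the unnamed genes (0.833%) and 0.794% of all genes.

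All samples were pools of strain JK1107, genotype glp-1(q224) III. GLP-1 is a Notch family receptor that keeps germ cells dividing, and in this mutant the germ line does not proliferate at 25°C. The 3 embryo pools held, by the sample labels, about 5000 eggs each at mixed developmental stages, released with bleach from parents grown at 15°C. The 3 young adult pools (day 1 after the last larval stage) and the 2 aging adult pools (day 6) held 3000 to 5000 animals each and were raised at 25°C after hatching (the study's methods give smaller pools than the labels), so that embryos differed from both adult groups in culture temperature as well as in stage. RNA of each pool was hybridised to 1 Affymetrix C. elegans array. Whether pools of a group came from separate cultures is not stated, and p-values measure the spread between these pools, which may be technical. Where all arrays of a group lay at the floor, the floor set the spread of that group to 0. The p-value of such a gene then does not measure the spread between the pools of that group. The body of an adult of this strain holds somatic tissue, chiefly hypodermis, intestine, muscle, pharynx, neurons and somatic gonad. The hypodermis is the skin-like layer that makes the collagen cuticle, which is renewed for the last time at the moult into adulthood, and the intestine is the organ of digestion, fat storage and yolk production. Sequence names remain on genes for which no phenotype, homology class or product was used to give a name, and the function of many of them is not known.

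All 64 members still have their sequence name as symbol in the RefSeq annotation of assembly WBcel235. That annotation lists 62 as protein coding and 2, E02H9.12 on chromosome III and F21F8.6 on chromosome V, as pseudogenes. A role was annotated in the sources used here for R04B5.5 alone, as an oxidoreductase acting on alcohol groups with a nicotinamide cofactor. The members were measured by 76 probe sets. Of the 64 members, 53 had 1 probe set, 10 had 2 and 1 had 3. In 16 members every probe set was of the types (_s_at or _x_at) that can hybridise to transcripts of similar genes, and the source of their signal among relatives is uncertain.

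The young adult arrays were dimmer than the others over all probe sets: their median deposited intensity was 19.08 to 21.88, against 32.42 to 36.87 for aging adults and 56.18 to 64.16 for embryos, and 62.7 to 65.7% of their probe sets lay below 50. Over the genes tested, the median log2 difference of young adults from aging adults was 0 after quantile normalization and -0.283 without rescaling, and that from embryos was -0.152 and -0.878. Without rescaling 21 of the 64 members met the rule. With each array divided by its median and the floor of 50 kept, an alternative chosen after the data were seen, 62 of them did, among 1.49% of the unnamed genes. In this alternative the floor was set after the division, on values brought back to a common scale. It therefore cut each array at a different deposited intensity, unlike the floor of the main fit. A floor of 0.01 with quantile normalization, also chosen then, raised the share to 2.13%, and the division of the study's methods, which has both changes, took 181 genes. Probe set values correlated (Spearman) at 0.917 to 0.939 between young adult arrays, 0.964 between aging adult arrays and 0.972 to 0.976 between embryo arrays. Cell type marker lists were read beside the members, since fewer cells of a type and less RNA per cell cannot be told apart in pooled animals. Of 14 hypodermal and adult cuticle genes 2 met the rule (col-19 and col-63, both cuticle collagens), and the list had a summed level between 11370 and 17030 on the young adult arrays, between 2097 and 2768 on the aging adult arrays and between 17870 and 19990 on the embryo arrays. None of 17 intestinal genes met it, with summed levels from 83840 to 95010 on the young and from 85440 to 88970 on the aging adult arrays. Of 41 sperm genes 1 met it (msp-59, a major sperm protein gene), with 9 above the floor on any young adult array and summed levels of 1326 to 1562 in young adults against at most 771.5 on any other array. The brightest of the 9 was ssp-10 (414, 692 and 462 in young adults, 241 and 231 in aging adults). The gene spe-39 was higher on every embryo array than on any young adult array. The others were msp genes, whose young adult values above the floor were 105.88 to 167.08. The 8 genes of the somatic gonad and vulva, none of which met it, had their highest sums in young adults. These were 3092 to 5051, against 1642 to 2275 in the older group and at most 725 in embryos. Most of the sum was tnt-2 (4793, 4240 and 3002 in young adults, 1815 and 1175 in aging adults). The genes lin-11 and ipp-5 were higher on both aging adult arrays than on any young adult array. In lim-7 and fkh-6 the adult groups overlapped, and egl-17, lag-2 and cog-1 were at the floor in adults. The 23 oocyte and early embryo genes summed to at most 258.6 in young adults against 18030 to 20840 in embryos, and none met it. None of the moulting, muscle, pharynx, neuron or coelomocyte and excretory genes met it either; body wall muscle genes summed to 13980 to 23980 in young adults and at most 13940 elsewhere. The part of these tissues in the members' values was not tested.

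**Figure D1:**
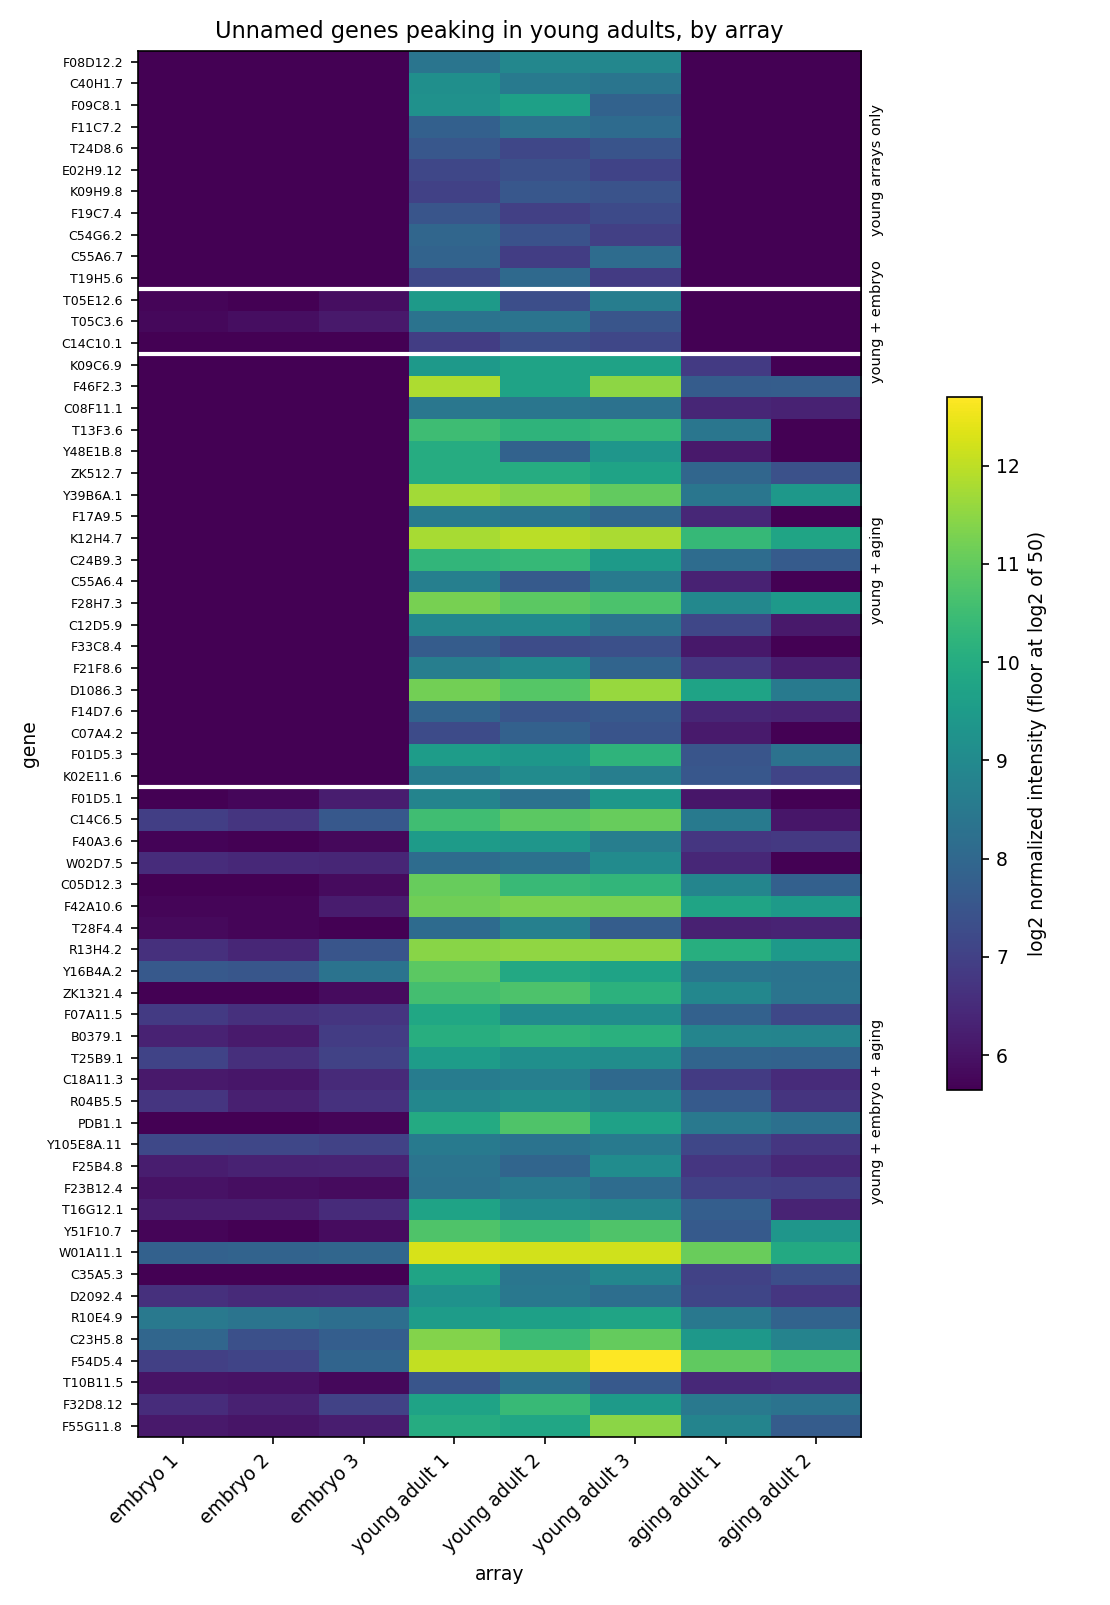
Log2 normalized intensity (colour) of the 64 members (rows) on the 8 arrays (columns), grouped by the arrays on which they were above the floor of 50. The 3 young adult columns are the brightest in every row, 11 members are dark on all embryo and aging adult arrays, and 20 more are dark on all embryo arrays only.

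In young adults the members ranged from a mean normalized intensity of 141.6 to 4979, with a median of 519.7. The mean in young adults was 2.47 to 11.6 times that in aging adults (median 3.59) and 2.47 to 73.8 times that in embryos (median 7.69), and the folds are against the floor for members at the floor in the group compared. These values chose the genes and are given without a test. On the deposited intensities, before any rescaling, 59 members still had every young adult array above every embryo and aging adult array, as 3.36% of all genes did, on the same arrays that chose the members. The other 5 (W02D7.5, Y105E8A.11, F25B4.8, R10E4.9 and T10B11.5) had a young adult array at or below an embryo array. R10E4.9, for example, read 484.8, 537.4 and 395.5 in embryos and 468.3, 549.8 and 812.2 in young adults as deposited, so that its groups overlapped before normalization.

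The members fell into 4 patterns by the arrays on which they could be measured. The first held 11 genes that were at the floor on all embryo and all aging adult arrays: F08D12.2, C40H1.7, F09C8.1, F11C7.2, T24D8.6, E02H9.12, K09H9.8, F19C7.4, C54G6.2, C55A6.7 and T19H5.6. Their highest deposited intensity in embryos or aging adults was 48.33. Their means in young adults were 147.1 to 542.7, 2.93 to 9.585 times the floor on the normalized scale. Normalization raised dim values of the young adult arrays, and as deposited the young adult means of these genes were 1.42 to 6.96 times the floor. Calls between the other stages also depended on the floor. At a floor of 20, 5 of the 11 (F08D12.2, E02H9.12, K09H9.8, F19C7.4 and C55A6.7) were called higher in aging adults than in embryos by limma. These calls rest on deposited readings of at most 48.33, and whether such readings reflect transcript or background was not tested. K09H9.8 read 48.3 and 45.7 in aging adults as deposited, against 54.6 on its lowest young adult array, so that its distance from the older group was small before normalization.

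F08D12.2 had the largest margin of all 64. Its normalized intensities were 334, 481 and 478 in young adults and 50, the floor, on the 5 other arrays. F08D12.2 was therefore high on each young adult array, at 431 ± 83.9 (SD, n = 3), 8.50 times the floor by its log2 mean. C40H1.7 read 575, 370.1 and 334 in young adults, with young adult replicate 1 above the other two, and was at the floor elsewhere. F09C8.1 read 591, 806 and 231, and its replicate 3 stood far below the other two while still clear of the floor. F11C7.2 read 223, 317 and 274 on the same arrays, a narrower spread at a lower level. At the lower end of this pattern the pseudogene E02H9.12 read 141, 166 and 134 in young adults, from deposited values of 60.8, 80.4 and 71.8 that lay close to the floor.

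A further 20 members were at the floor on all embryo arrays and above it on at least 1 aging adult array. K09C6.9 belonged to these, with 702, 855 and 835 in young adults and 116 and 50 in aging adults. Its signal in aging adults thus came from replicate 1 alone, as in T13F3.6, which read 1466, 1207 and 1305 in young adults and 340.0 and 50 in aging adults. Y48E1B.8 read 1032, 234 and 658 in young adults and 69.3 and 50 in aging adults, so that its lowest young adult array was still more than 3-fold above the higher aging adult array. C08F11.1 was even within both adult groups. It read 348, 341 and 315 in young adults and 85.1 and 79.9 in aging adults, a 4.05-fold difference of the means with no overlap. F46F2.3 reached 3629, 851 and 2871 in young adults against 208 and 213 in aging adults, and its young adult arrays were much farther apart than its aging adult arrays.

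The remaining 33 members were above the floor on an embryo array. Of these, 30 were also above it on an aging adult array, and 3 (T05E12.6, T05C3.6 and C14C10.1) were not. T05C3.6 read 56.1, 59.9 and 70.3 in embryos, 319, 326 and 181 in young adults and the floor in aging adults, with no overlap between any 2 groups. C14C6.5 was among the 30. It read 125, 106 and 192 in embryos, 1474, 1926 and 2126 in young adults, and 369.7 and 67.2 in aging adults, whose 2 arrays lay on either side of all the embryo values. F40A3.6 stayed just above the floor in embryos (52.2, 50.4 and 55.5), stood at 728, 649 and 407 in young adults and at 108 and 112.6 in aging adults, with no overlap between groups. R04B5.5, the annotated oxidoreductase, read 106, 77.5 and 99.6 in embryos, 485, 555 and 451 in young adults, and 199 and 104 in aging adults, where replicate 2 overlapped the embryos.

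**Figure D2:**
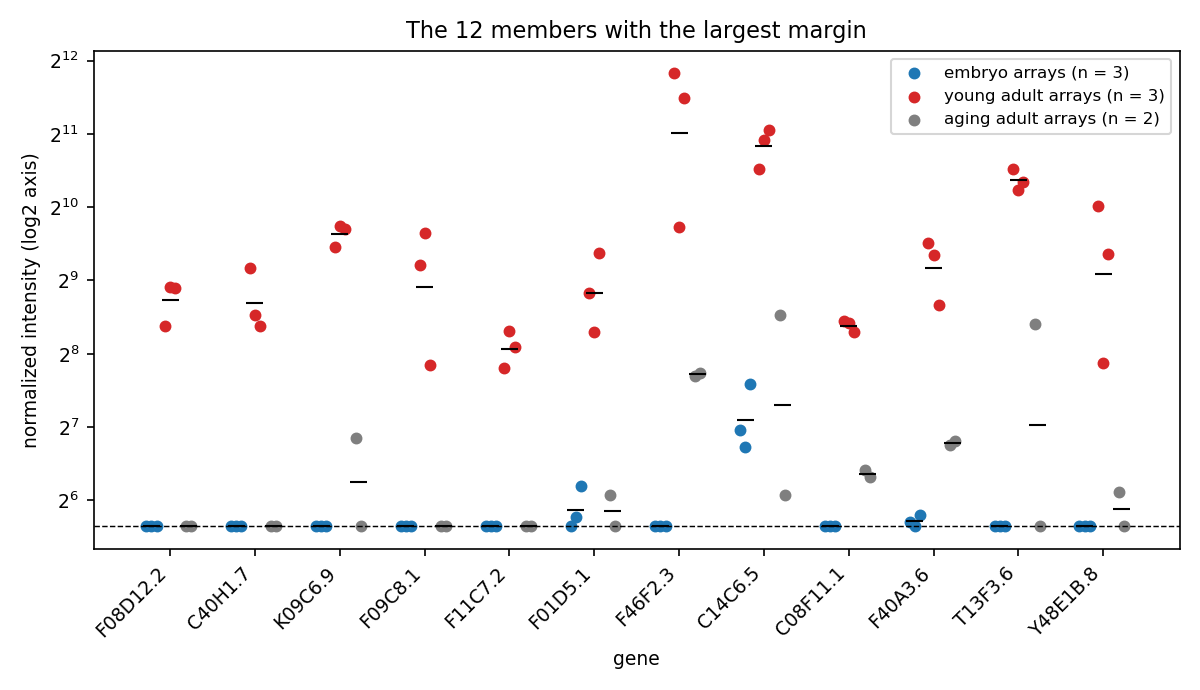
Normalized intensity on a log2 axis of the 12 members with the largest margin, by array (points) with the geometric mean of each group (bars); the dashed line is the floor of 50. All young adult points lie above all other points of the gene, and the 2 aging adult points of C14C6.5 and T13F3.6 lie far apart.

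The brightest members in young adults, with the probe sets of a gene summarised by their median, were F54D5.4, W01A11.1, K12H4.7, R13H4.2, Y39B6A.1, F46F2.3, F42A10.6 and D1086.3. Brightness depends on the probes and does not rank transcripts between genes. W01A11.1 read 4932, 4711 and 4624 in young adults, 2179.9 and 969 in aging adults and 227, 235 and 251 in embryos. The 3 groups were separate, and the 2 aging adult arrays differed from each other far more than the young adult arrays did. R13H4.2 was the most even of all members in young adults (2758, 2932 and 2932, a range of 1.06-fold), followed by W01A11.1 (1.07-fold) and C08F11.1 (1.10-fold).

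At the edge of the rule, the members just inside were F54D5.4, T10B11.5, F55G11.8 and F32D8.12, with margins of 1.02, 1.01, 1.01 and 1.01 on the log2 scale. The unnamed genes just outside were K11H3.3, R12C12.9, C05C10.3 and Y70C5A.3, with margins of 0.98, 0.98, 0.98 and 0.97. The list therefore has no natural gap at its limit. It also depended on 1 array: without aging adult replicate 1 the rule took 1.77% of the unnamed genes, 63 of the 64 members among them.

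The order of embryos and aging adults was not set by the rule, which only capped the values of both. Their comparison asked on which side of the young adult peak the members were higher. It was tested with limma over 10702 genes, with p adjusted by the Benjamini-Hochberg method at 0.05, and 28.3% of all genes tested were called higher in aging adults and 37.5% higher in embryos. Of the members, 29 of 64 (45.3%) were higher in aging adults and 0 were higher in embryos. At an unadjusted p under 0.05 these counts were 30 and 0. Among all unnamed genes tested, 31.3% were higher in aging adults and 33.2% in embryos. The median log2 difference, embryos minus aging adults, was -0.673 over the members, 0.001 over the unnamed genes and 0.078 over all genes tested. Of the 35 members not called, 11 were at the floor in both groups and could not show a difference at this floor. The count followed the floor: 42 members were called higher in aging adults at a floor of 20 and 22 at a floor of 100, with 0 higher in embryos at either. The median log2 difference over the members was -1.397 at the floor of 20 and -0.313 at the floor of 100. Over all genes tested it was 0.02 and 0.087, and calls over all genes at these floors are not given. The rule bounds a member from above in both groups by the same limit and sets no order between them. The test left out genes at the floor on all arrays. The 11 members at the floor in both groups entered it by their young adult values alone. Young adult arrays correlated (Spearman) at 0.889 to 0.918 with aging adult arrays and at 0.61 to 0.649 with embryo arrays. How far the choice of genes high in young adults moved the counts was not tested, and calls for the named genes meeting the rule are not given.

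K12H4.7 differed most between the 2 groups. It was at the floor on all 3 embryo arrays and read 1309.5 and 865 in aging adults and 3489, 4028 and 3568 in young adults. The aging adult arrays were thus far above the embryo arrays, at least 21.3-fold (log2 difference -4.41, SE 0.18, adjusted p = 2.39e-06 by limma). F42A10.6 read 53.4, 53.3 and 72.0 in embryos, 871 and 721 in aging adults and 2302, 2542 and 2469 in young adults. The 3 groups were separate, and aging adults stood 13.45-fold above embryos (log2 difference -3.75, SE 0.17, adjusted p = 3.57e-06 by limma).

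F28H7.3 was at the floor in embryos and read 487 and 697 in aging adults and 2445, 1931 and 1659.9 in young adults (aging adults at least 11.65-fold above embryos, adjusted p = 9.64e-06 by limma). D1086.3, also at the floor in embryos, read 849 and 365 in aging adults and 2326, 1844 and 3111 in young adults (at least 11.1-fold, adjusted p = 0.000137 by limma). Y39B6A.1 was again at the floor in embryos, with 344 and 676 in aging adults and 3390.5, 2790.4 and 2048 in young adults (at least 9.64-fold, adjusted p = 8.81e-05 by limma). In all 3 genes the aging adult arrays lay between the other groups without overlap, and their order differed, with replicate 1 higher in D1086.3 and replicate 2 higher in the other two. F54D5.4 was measurable in all groups, at 127, 137 and 243 in embryos, 1998 and 1585 in aging adults and 4255, 4049.8 and 6633 in young adults, and aging adults were 10.98-fold above embryos (adjusted p = 9.14e-05 by limma).

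The calls extended to dimmer members with even arrays. C08F11.1, described above, was at least 1.65-fold higher in aging adults than in embryos (adjusted p = 0.0017 by limma) and F40A3.6 was 2.09-fold higher (adjusted p = 0.00785 by limma), and both calls were lost at a floor of 100 (adjusted p = 1 and 0.577 by limma). F46F2.3 was at least 4.21-fold higher (adjusted p = 0.0141 by limma), but leaving out any 1 of the embryo or aging adult arrays moved its adjusted p to between 0.0545 and 0.0808, past the threshold, and at a floor of 100 it was 0.133. Aging adult arrays lay wholly above embryo arrays in 35 of the 64 members, and in 3788 of the 10702 genes tested (35.4%). Embryo arrays lay wholly above aging adult arrays in 2 of the 64, and in 4873 of the 10702 genes (45.5%). By the mean alone, 46 members were higher in aging adults and 7 in embryos, and the shares over all genes are not given. Among those 7, W02D7.5 showed the largest difference, with 93.1, 87.6 and 85.0 in embryos and 86.1 and 50 in aging adults (log2 difference 0.43, SE 0.33, adjusted p = 0.285 by limma), and the groups overlapped. Y105E8A.11 (143, 141 and 129.9 in embryos; 140.4 and 109 in aging adults) and R10E4.9 (358, 328 and 295 against 356 and 238) were close between the groups and overlapped.

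**Figure D3:**
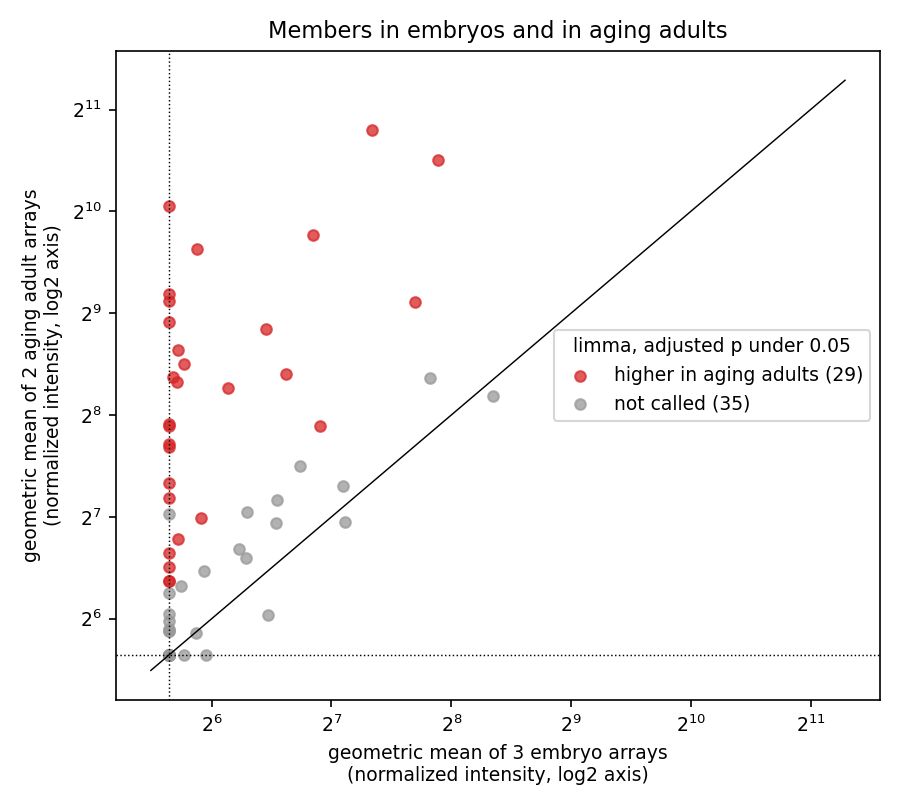
Geometric mean normalized intensity in 3 embryo arrays (x axis) against 2 aging adult arrays (y axis) for the 64 members, both on log2 axes; the solid line marks equal values and the dotted lines the floor of 50. The 29 members called higher in aging adults (red) lie above the line, many of them at the floor in embryos, and no member was called higher in embryos.

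Over all genes the split of higher in embryos against higher in aging adults was 4009 to 3032 with quantile normalization, 4997 to 2446 without rescaling and 3157 to 3495 with median division and the floor of 50 kept. The division of the study's methods, with a floor of 0.01 and 17118 genes tested, gave 3054 to 4642. Without rescaling 24 of the 29 were still called and 1 other member, Y105E8A.11, was called higher in embryos (log2 difference 1.00), and with median division and the floor kept 27 of the 29 were called and no others. A floor of 0.01 alone kept all 29 and added 14. Across the 22 alternatives that kept every probe set, 19 of the 29 were called in each.

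The 2 aging adult arrays differed over the members. Of 50 members above the floor on an aging adult array, 41 (82%) were higher in replicate 1 and 9 in replicate 2. Among all genes above the floor on either array, 50.3% were higher in replicate 1, and among the unnamed genes 54.7%. The 131 named genes that met the same rule leaned the same way, with 72 of 91 (79.1%) higher in replicate 1. In the 41 members above the floor on both arrays the median ratio of replicate 1 to replicate 2 was 1.27, against 1.32 in the named genes of this pattern and 0.99 in all genes. More than 2-fold differences were found in 8 of them: replicate 1 was higher in 7 (17.1%, against 1.61% of all genes) and replicate 2 in 1. The latter, Y51F10.7, read 201 and 652 in aging adults, 1721, 1393 and 1710.2 in young adults and 53.6, 50.9 and 59.1 in embryos. T13F3.6 and C14C6.5, given above, had the widest gaps in the other direction. Whether the 2 pools differed in age, in handling or in hybridisation was not tested.

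**Figure D4:**
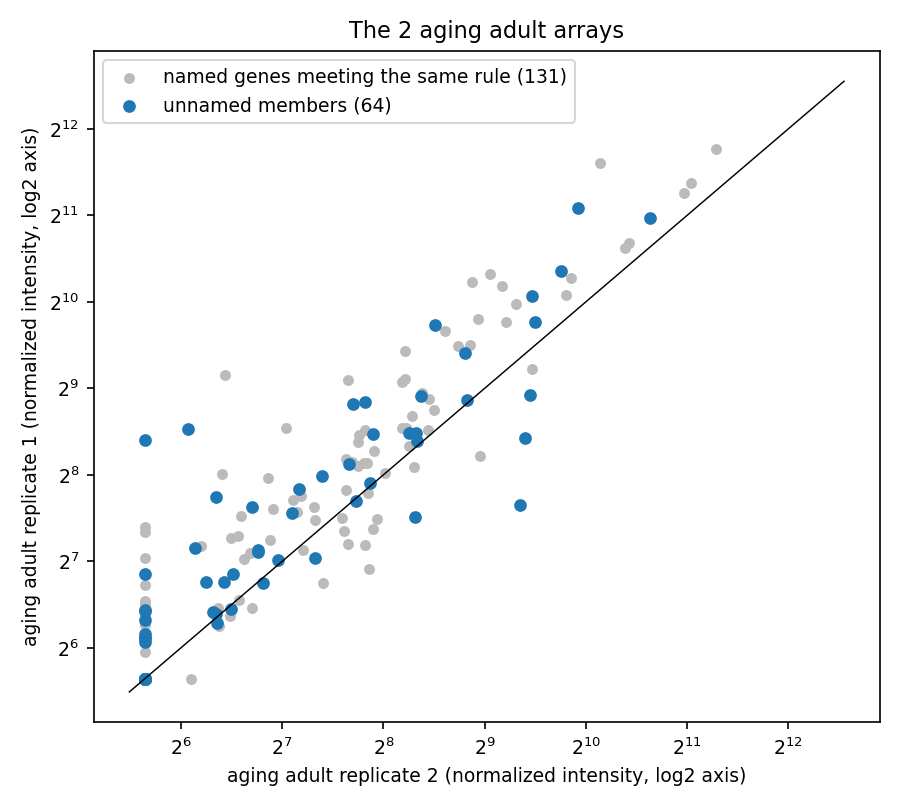
Normalized intensity on aging adult replicate 2 (x axis) against replicate 1 (y axis), log2 axes, for the 64 members (blue) and the 131 named genes meeting the same rule (grey); the line marks equal values. Most points lie above the line, with 41 of the 50 members above the floor higher in replicate 1, and Y51F10.7 is the member farthest below it.

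The members also varied among the young adult pools. Their highest and lowest young adult values were a median of 0.68 apart on the log2 scale, against 0.55 for the 5270 genes above the floor on all 3 young adult arrays, and 15 members (23.4%) spanned more than 1, against 16.4% of those genes. Replicate 1 was the highest array in 26 members, replicate 2 in 27 and replicate 3 in 11, against 33.9%, 31.9% and 34.2% of those genes. The widest spreads were in T05E12.6 (721, 160.3 and 398 in young adults, 4.50-fold), Y48E1B.8 (4.40-fold) and F46F2.3 (4.27-fold), and in these 3 genes replicate 2 was the lowest and replicate 1 the highest.

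Different members stood apart on different young adult arrays, a comparison added after the values were seen. Replicate 1 was at least 1.5-fold above both other arrays in 9 members (14.1%, against 4.12% of the 5270 genes), replicate 2 in 5 (7.81%, against 4.48%) and replicate 3 in 5 (7.81%, against 6.55%). The members high on replicate 3 were W02D7.5, F25B4.8, F01D5.3, F54D5.4 and F55G11.8. F55G11.8 read 1035, 910.1 and 2812 in young adults, 453 and 208 in aging adults and 70.2, 66.5 and 73.9 in embryos, with replicate 3 of the young adults far above the rest. Of the 131 named genes of the pattern 5 (3.82%) were high on the same array, below the share of all genes, and among them were irg-4, an infection response gene (3563, 3558.6 and 7380), and dod-24, named as lying downstream of the forkhead factor DAF-16 (2607.7, 2975.7 and 5346.8). The members high on replicate 2 were T28F4.4, T19H5.6, PDB1.1, T10B11.5 and F32D8.12. PDB1.1, for instance, read 991, 1724 and 813 in young adults, 359 and 306 in aging adults and 50, 50 and 53.3 in embryos. Of the named genes 15 (11.5%) were high on that array, and among them were the lipase gene lipl-2 (944, 3045 and 761) and the cytochrome P450 gene cyp-37B1 (423, 1349 and 288). Among the 9 members high on replicate 1 were C40H1.7, Y48E1B.8 and T05E12.6, and 21 named genes (16.0%) were high there. No member or named gene of the pattern was at least 1.5-fold lower on replicate 1 than on both others, against 3.8% of the 5270 genes. Replicate 2 was that low in 5 members (7.81%, against 4.04%) and replicate 3 in 5 (7.81%, against 8.01%).

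Members lay on all 6 chromosomes. Chromosome V held 26 of the 64 (40.6%), against 23.2% of the unnamed genes measured, 30.5% of the named genes meeting the rule and 25.2% of all genes. Chromosome IV held 5 (7.81%), against 16.0% of the unnamed genes and 20.6% of the named genes meeting the rule. Related genes often lie side by side in this genome and their probes can share sequence, so that these shares are a description of genes that are not independent.

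**Figure D5:**
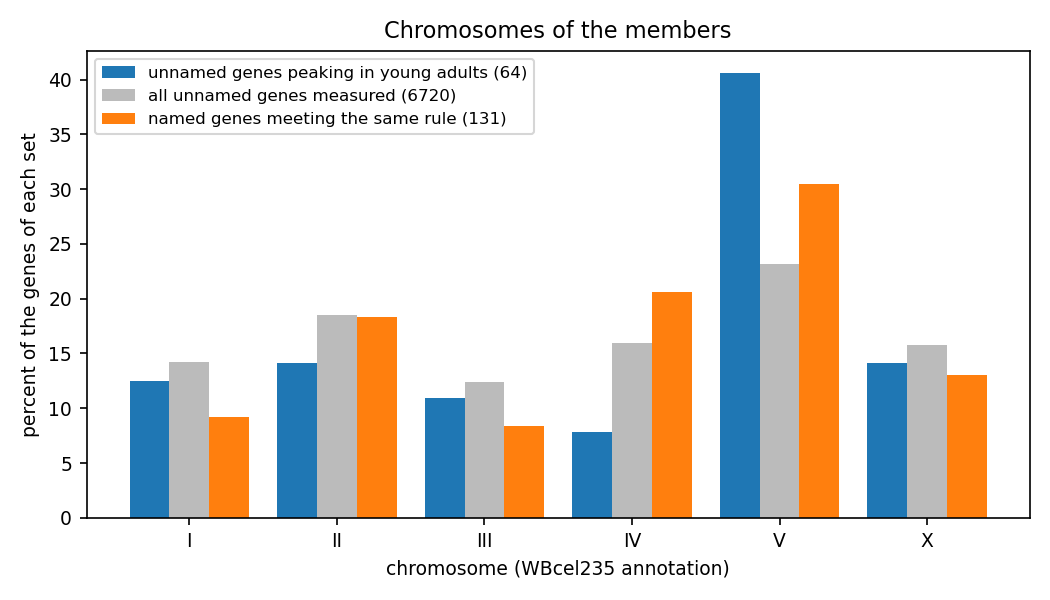
Percent of genes on each chromosome for the 64 members (blue), all 6720 unnamed genes measured (grey) and the 131 named genes meeting the same rule (orange). Chromosome V holds 40.6% of the members against 23.2% of the unnamed genes, and chromosome IV 7.81% against 16.0%.

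The nearest protein coding gene on each side of the members was read from the WBcel235 annotation, again after the values were seen. It gave 103 distinct measured neighbours that were no members, and 4 of these (3.88%, against 1.14% of all genes) met the young adult rule. They were col-49, a cuticle collagen gene beside K09H9.8, chil-23, a chitinase-like gene beside T19H5.6, dod-22, named as downstream of DAF-16, beside F55G11.8, and vap-1, a venom allergen-like protein gene beside F11C7.2. The gene dod-22 read 513, 643 and 767 in young adults and the floor elsewhere. Its neighbour F55G11.8 shared the order of the young adult pools only in that replicate 3 was highest. The gene chil-23 read 163, 319 and 141.7 in young adults and its neighbour T19H5.6 read 145, 268 and 117, with replicate 2 highest in both and both at the floor on all other arrays. The members C55A6.4 and C55A6.7 on chromosome V were each other's neighbours. C55A6.4 read 409, 199 and 375 and C55A6.7 read 237, 122.1 and 282 in young adults, both lowest on replicate 2 and both at the floor in embryos. Of 73 neighbours with a test of young against aging adults, 10 (13.7%) were called higher in young adults by limma, against 6.77% of all genes, and 6 (8.22%) lower, against 11.6%. The 10 include the 4 neighbours that met the rule, so that the 2 shares are not separate observations.

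The probe sets of a gene mostly gave the same picture. Of the 11 members with several probe sets, 8 met the rule with each of them. In C23H5.8 and F23B12.4 1 of the 2 probe sets fell just short, with margins of 0.97 and 0.96. In T16G12.1 1 of 3 probe sets read 297, 156.5 and 50 in young adults and the floor elsewhere, so that its young adult arrays overlapped the other groups, while the other probe sets had margins of 1.41 and 1.11.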

How the data were processed

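RNA from 8 pools of glp-1 nematodes was hybridised by the authors to Affymetrix C. elegans arrays (1 array a pool) and read with GCOS. The deposited intensity values are linear, background-subtracted and not rescaled to a common median; the step that gave them is not given in the sources used here. The authors also deposited fold changes and p-values of their own comparisons, which were not used. Groups came from the sample labels.

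Of 22548 probe sets, 20766 were assigned to 1 gene by the array annotation and used, 887 to several and 895 to none. Intensities below 50 were set to 50, the arrays were quantile normalized (ties averaged), log2 was taken and the probe sets of a gene were summarised by their median. Means and SDs are of linear values, folds of log2 means. Genes at the floor on all arrays (6416) were left out of the test. Embryos and aging adults were compared by limma 3.58.1 in R 4.3.3 (lmFit, eBayes with a variance trend, no covariate, all 8 arrays in the fit), with Benjamini-Hochberg adjustment over 10702 genes; the script was tested on simulated data. The number of arrays limits the precision. Named genes were those with the largest margins (12), brightest young adult signals (8), margins nearest the limit (4 inside, 4 outside), largest embryo and aging adult differences and widest and narrowest young adult spreads. Alternatives covered the floor, scaling, probe set choice, model, filter and leaving out each array. Of these, 2 were added after the data were seen: the lower floor alone, and the division with the floor of 50 set after it. The members, lists and tests were chosen with earlier results of these data known.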

Additional observations from a re-analysis of the deposited data

How the results depend on the processing

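The rule took 64 unnamed genes (0.952% of those measured), 21 (0.312%) without rescaling and 181 (2.69%) with the methods' median division, which also lowers the floor to 0.01. In alternatives added after the data were seen, the lower floor alone gave 2.13% and the division with the floor of 50 set after it gave 1.49%. Leaving out 1 array gave 0.997 to 1.77%, the highest without aging adult replicate 1; 60 of the 64 members met the rule in all 8 of these settings, and 14 under all 9 settings of scaling, floor and probe sets. Members called higher in aging adults than embryos numbered 17 without probe sets ending in _s_at and _x_at, where 48 members were measured and 17 of 18 calls were kept, and 24 to 34 with 1 array left out. Members called higher in embryos numbered 1 without rescaling (Y105E8A.11) and 1 with only the 2 groups in the fit (T05C3.6, adjusted p = 0.048 by limma), and 0 to 0 with 1 array left out. Over all genes, calls higher in aging adults were 4642 of 17118 genes tested with the methods' median division (3495 with the division and 3738 with the floor alone), and calls higher in embryos fell to 2632 of 7634 genes tested without those probe sets; with 1 array left out they were 2635 to 3293 and 3430 to 4160. The cause of these shifts was not tested, apart from the smaller number of genes. Of 452 comparisons of single genes under the alternatives, 426 had the same outcome as in the main fit, called or not called. In 11 a call was lost, in 15 a call was gained and 0 changed direction. Listed genes with a difference of 0 in the main fit were left out of this count. F08D12.2 was such a gene, and it gained a call at a floor of 20. With a replicate block 28 members were called higher in aging adults and 0 in embryos, of 2980 and 3885 genes in all. The deviations of same-numbered arrays correlated at -0.043 to 0.043, and the deviations of the 2 aging adult arrays mirror each other. These values cannot show whether same-numbered pools shared a culture or a batch, and the labels give only the number. F55G11.8 lost its call without aging adult replicate 1 (adjusted p = 0.0966 by limma). With 2 aging adult arrays and a floor at 50, small differences of dim members could go undetected, although some, as in C08F11.1, were called.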

Other observations

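Some probe sets outside the gene table met the rule as well. Of 887 probe sets assigned to several genes, 19 (2.14%) met the young adult rule, and of 895 assigned to no gene 3 (0.335%) did, against 1.14% of the genes. Some matched unnamed genes alone. The probe set shared by F45D11.14, F45D11.15 and F45D11.16 read 1417, 3192 and 895 in young adults, 202 and 118.96 in aging adults and 179, 127 and 123 in embryos, and the one shared by F45D11.2, F45D11.3 and F45D11.4 read 225, 715 and 169 in young adults, 50 in both aging adult pools and 50, 50.8 and 50 in embryos. Young adult replicate 2 was the highest array in both. The pair W10C8.5 and F32B5.1 was read by 2 probe sets, at 2098, 1727 and 1826 and at 1630, 1324 and 1393 in young adults, with aging adults at 552 and 337 and at 467 and 296. The pair T04A11.1 and T04A11.4 read 505, 591 and 579.8 in young adults, 163 and 144 in aging adults and the floor in embryos. Shared probe sets named for known genes included col-178 with col-179, cuticle collagens, at 10015, 10155 and 9008.5 in young adults and 824 and 412 in aging adults, and pud-2.1 with pud-2.2 at 6482, 7723 and 4132 against 1673 and 380.2. Which of the genes sharing a probe set gave the signal was not tested.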
